A study of Mus musculus with 6 samples.

Results

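Lysosomal enzyme, lysosomal membrane and proton pump genes were measured in dissected eye tissue of albino and of pigmented mouse embryos at embryonic day 13.5, labelled as retinal pigment epithelium (RPE). The set was taken as a list of 29 genes of known function, and each gene was represented by 1 probe set, the one with the highest mean over the 6 arrays among those the platform annotation assigns to that gene alone. The annotation used names 27 of the 29, and all 27 passed the filter of a mean log2 value of at least 5, out of 12098 genes tested in all. They comprise 13 genes of the vacuolar proton pump (V-ATPase) and 14 genes of hydrolases, their cofactors and lysosomal membrane proteins. Atp6v0c, the main proteolipid of the pump's rotor ring, and Cd63, a tetraspanin of late endosomes, are not named there and have no value here.

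The series sets 3 arrays of albino embryos against 3 arrays of embryos labelled as pigmented controls, and each array held RPE tissue pooled from 3 to 4 littermates. No further allele, strain or treatment is named in the labels, so the gene behind the albino label is not known here. The protocol describes removal of the lens, the cornea, the neural retina and surrounding tissue, while the sample descriptions also speak of the whole eye region. The pools of a genotype are labelled as biological replicates. Every value below is a log2 expression value made with RMA, which corrects background, equalises the arrays and summarises the probes of a probe set. Differences are albino minus pigmented, and a level is compared only within its own probe set.

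Lysosomes are acidic compartments that break down proteins, lipids and sugars delivered from the cell surface and from within. The V-ATPase pumps protons into them: its V1 sector in the cytosol splits ATP and turns a rotor, and its V0 sector in the membrane carries the protons across. In the adult RPE, lysosomes digest the photoreceptor outer segments taken up each day. Melanosomes, the organelles that hold melanin, are related to lysosomes, share part of their sorting machinery and carry V-ATPase too.

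The tissue label was checked on markers. Of 12 RPE genes, 10 passed the filter, while Rpe65, the retinoid isomerase gene, and Lrat, which acts beside it in the visual cycle, read 3.23 and 3.03 on average and did not pass. Pmel, the gene of the melanosome fibril protein, averaged 12.56 over the 6 arrays. Markers of other cells were present on every array, with means over the periocular mesenchyme list of 10.80 to 10.92 in albino pools and 10.84 to 11.03 in pigmented pools. Skeletal muscle markers averaged 8.37 to 8.97 per albino array and 7.05 to 7.92 per pigmented array, and 11 of 12 were higher in albino. In such bulk tissue, fewer cells of a type and less RNA per cell cannot be told apart.

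No lysosomal or proton pump gene passed the threshold between the genotypes, and the differences were small. In the limma fit over all probe sets, 0 of 27 members stood at an adjusted p under 0.05, as did 0 of 23591 probe sets (0.0%). The 27 differences ran from -0.15 (Lamp2) to 0.25 (Neu1), with a median of 0.04, which was also the median of all tested genes. Of the members 19 were higher in albino, 7 lower and 1 equal, where 63.8% of all tested genes were higher. The balance turned with the scaling. With the arrays centred on the medians of the tested probe sets, 6 of 27 were higher and the median was -0.03, again the value of all tested genes. Single arrays moved it as well: 4 of 27 were higher without albino replicate 1 (median -0.08) and 24 of 27 without pigmented replicate 1 (median 0.15). Before adjustment 1 member had a p under 0.05 and was higher in albino (3.47% of all genes), and 0 were lower (1.31%), so 1 of 27 was called where 4.79% of all genes were.

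**Figure D1:**
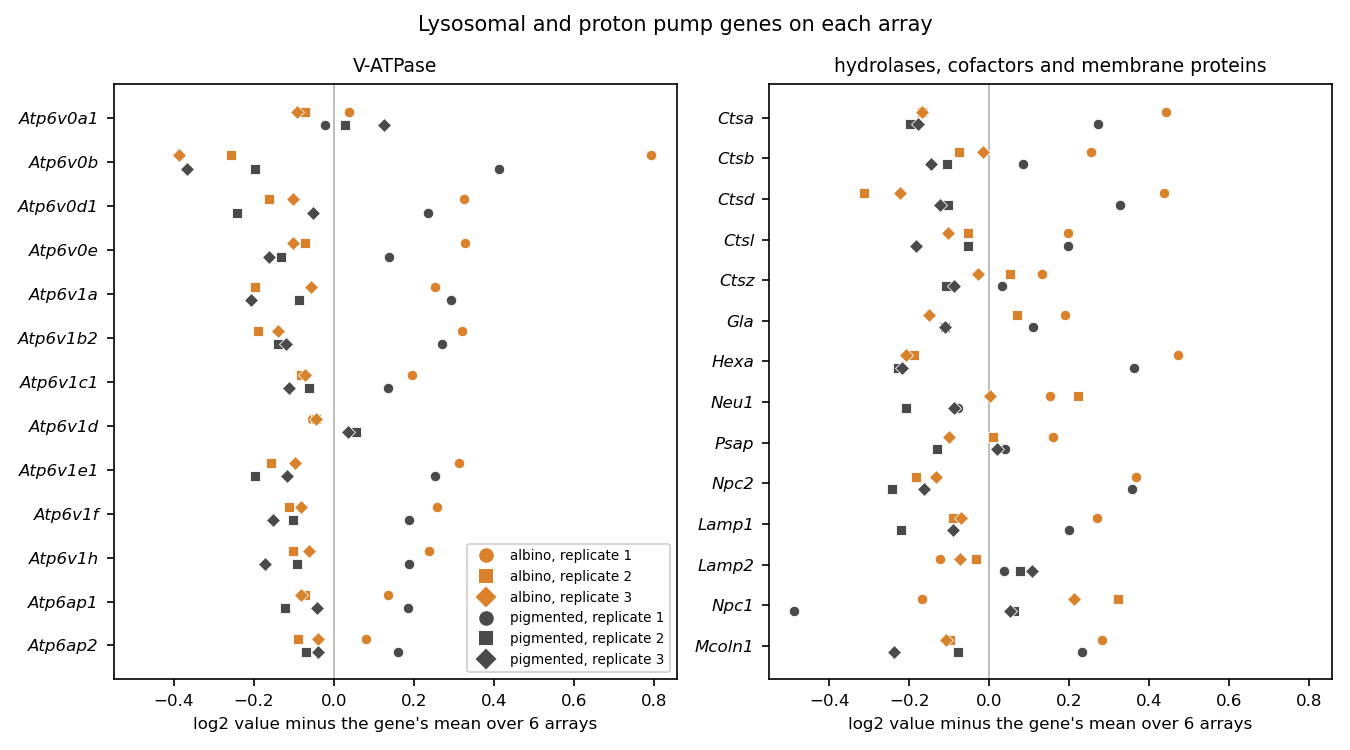
Log2 value of each member on each of the 6 arrays, as the distance from that gene's mean over the 6 arrays, with albino arrays (orange) above pigmented arrays (dark grey) in each row and the replicate number shown by the marker shape. The replicate 1 arrays of both genotypes (circles) lie to the right of the others of their genotype for 22 of 27 genes, and the genotypes separate without overlap for Neu1, Atp6v1d and Lamp2.

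The labels number the pools 1 to 3 in both genotypes, and the comparison was also fitted with the number as a block. Deviations from the genotype means correlated at 0.863, 0.687 and 0.448 between arrays numbered 1, 2 and 3. Albino 2 with pigmented 3 (0.693) and albino 3 with pigmented 2 (0.546) came at least as high. The match by number was thus clear for replicate 1 only. With that replicate block the median standard error (SE) of the members was 0.06, against 0.15 without it. Still 0 of 27 passed (smallest limma adjusted p = 0.204), as did 0 of 23591 probe sets (0.0%). Unadjusted p-values under 0.05 with the block were held by 2 members higher in albino, Neu1 and Npc1 (11.3% of all genes were called so), and by 1 lower, Lamp2 (5.54% of all genes). The share of 3 in 27 members lay below the 16.9% of all tested genes called in either direction with the block.

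**Figure D2:**
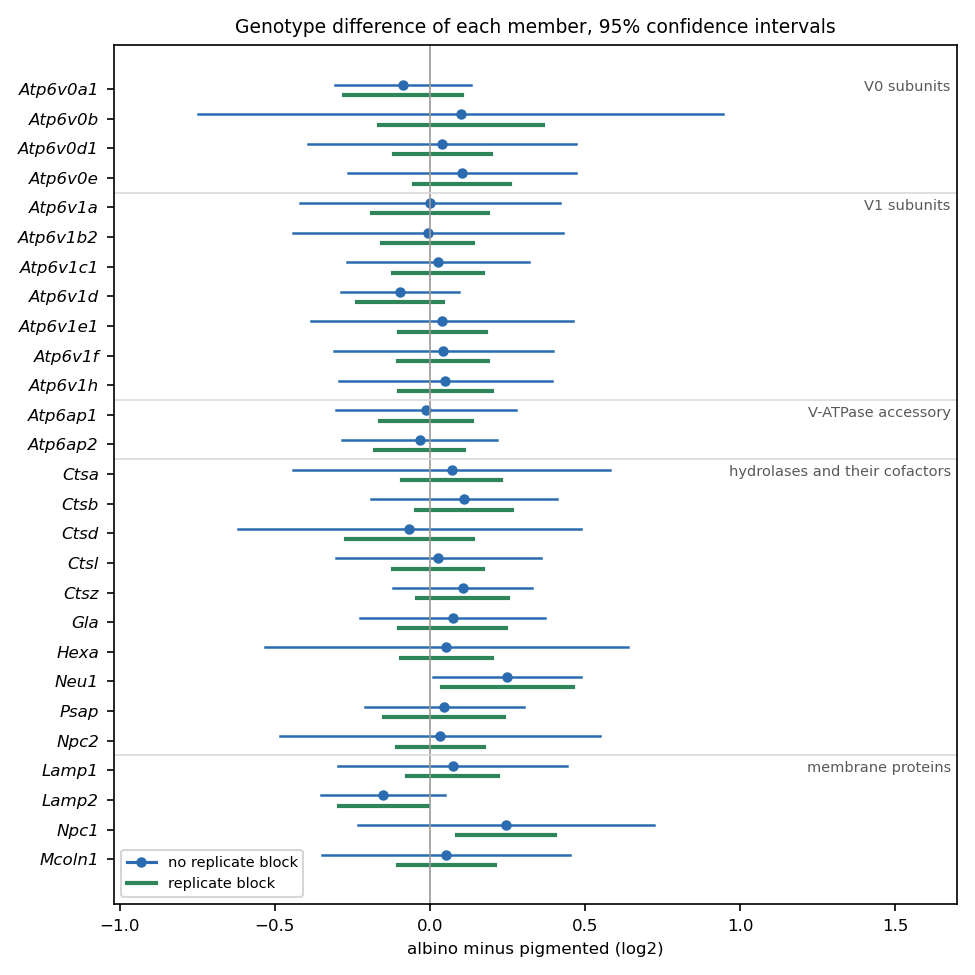
Albino minus pigmented difference (log2) of each member, ordered by role, with 95% confidence intervals from limma without the replicate block (blue, with the estimate as a point) and with it (green). Without the block the intervals reach from -0.75 to 0.95 (both ends from Atp6v0b), and only that of Neu1 lies off 0. With the block they lie between -0.29 and 0.46.

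Among the V0 genes, which build the membrane sector of the pump, differences ran from -0.09 to 0.10. Atp6v0a1, whose subunit forms the path of the protons, read 6.68, 6.57 and 6.55 in albino pools and 6.62, 6.67 and 6.77 in pigmented pools. Its difference was -0.09 (SE 0.09, limma adjusted p = 0.999), and the groups overlapped. Atp6v0d1, the subunit that couples the rotor to the ring, read 10.65, 10.16 and 10.22 in albino pools, against 10.56, 10.08 and 10.27 in pigmented pools. In each genotype the replicate 1 array stood above the other 2 arrays by more than the genotypes differed (0.04, SE 0.18).

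Atp6v0e, a small membrane subunit, read 10.21, 9.81 and 9.78 in albino pools and 10.02, 9.75 and 9.72 in pigmented pools. It was higher in albino between all 3 arrays of the same number, by 0.19, 0.06 and 0.06, with a difference of 0.10 (SE 0.15). Atp6v0b, a second proteolipid of the ring, varied most of all members, over a range of 1.18. The 3 albino pools read 9.50, 8.45 and 8.32, and the 3 pigmented pools 9.12, 8.51 and 8.34. The replicate 1 arrays stood above all others. The difference of 0.10 (SE 0.35) became -0.04 without both replicate 1 arrays, and the other 2 probe sets of the gene gave -0.09 and 0.14.

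The V1 genes, which build the ATP-splitting sector, differed by -0.10 to 0.05. Atp6v1d, a subunit of the central rotor shaft, had the steadiest of the probe sets used for the members (range 0.11). It read 9.79, 9.80 and 9.80 in albino pools, against 9.90, 9.90 and 9.88 in pigmented pools, without overlap. Its difference was -0.10 (SE 0.08, limma adjusted p = 0.999), and the adjusted p was 0.385 with the replicate block. All 3 tested probe sets of the gene had lower means in albino (-0.10, -0.14 and -0.01). On the other 2 the groups overlapped, over ranges of 0.36 and 0.39. Without overlap and lower in albino were 2 of 27 members, this gene and Lamp2 (3.38% of all genes), and 1 was higher, Neu1 (7.97%).

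Atp6v1h, a regulatory subunit of V1, read 9.16, 8.82 and 8.86 in albino pools, against 9.11, 8.83 and 8.75 in pigmented pools, a difference of 0.05 (SE 0.14). Atp6v1b2, the B subunit that shares the nucleotide-binding head with the catalytic A subunit, read 9.44, 8.93 and 8.98 in albino pools and 9.39, 8.98 and 9.0 in pigmented pools. Its difference was -0.01 (SE 0.18), far inside the spread within each genotype. Atp6v1e1, a subunit of the peripheral stalk, read 10.26, 9.79 and 9.85 in albino pools, against 10.20, 9.75 and 9.83 in pigmented pools. The estimate was 0.04 (SE 0.18), while its second tested probe set gave -0.21. Atp6v1a, the catalytic subunit itself, had the same mean of 9.49 in both genotypes, with an SD of 0.23 (albino) and 0.26 (pigmented) over 3 pools each. Its second probe set gave 0.10. Atp6v1c1, which takes part in the reversible assembly of the sectors, differed by 0.03 and Atp6v1f, a rotor subunit, by 0.04.

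Both accessory genes lay close to 0. Atp6ap1, which helps assemble the pump, read 10.35, 10.14 and 10.13 in albino pools and 10.40, 10.09 and 10.17 in pigmented pools. Atp6ap2, also known as the prorenin receptor, read 11.04, 10.87 and 10.92 in albino pools and 11.12, 10.89 and 10.92 in pigmented pools. The differences were -0.01 (SE 0.12) and -0.03 (SE 0.10), and the groups overlapped for both.

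Of the 10 hydrolase and cofactor genes, 9 were higher in albino pools and 1 was lower, with a median of 0.06, where 63.8% of all tested genes were higher, and 0 passed the adjusted threshold. After centring on the tested probe sets 3 of these 10 were higher, 6 lower and 1 at 0. Neu1, the lysosomal sialidase, read 6.14, 6.21 and 5.99 in albino pools and 5.91, 5.78 and 5.90 in pigmented pools. All 3 albino values lay above all pigmented values. The difference was 0.25 or 1.19-fold (SE 0.10, 95% confidence interval 0.01 to 0.49, unadjusted p = 0.0424, limma adjusted p = 0.999). The unadjusted p was above 0.05 when any array other than albino replicate 3 was left out, reaching 0.149 without albino replicate 2 (difference 0.20). After centring on the tested probe sets the difference was 0.18 (limma unadjusted p = 0.0841). Its other 2 probe sets, both below the filter, gave -0.20 and -0.12. Ctsa, the carboxypeptidase that holds and protects Neu1 in a complex, averaged 9.39 ± 0.35 (albino pools) and 9.32 ± 0.27 (pigmented pools; SD over 3 pools each), and its second tested probe set gave -0.19.

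The cathepsins, proteases of the lysosome, differed by -0.07 to 0.11. Ctsz, a carboxypeptidase, read 10.89, 10.81 and 10.73 in albino pools and 10.79, 10.65 and 10.67 in pigmented pools. It was higher in albino by 0.10, 0.16 and 0.06 between arrays of the same number, for a difference of 0.11 (SE 0.09), and its other 2 probe sets gave 0.12 and 0.08. Ctsb, a cysteine protease, differed by 0.11 (SE 0.12), and its other 3 tested probe sets gave 0.11, 0.14 and 0.25. The difference of 0.11 was 0.01 without albino replicate 1 and 0.18 without pigmented replicate 1. The probe set with 0.25 read 8.61, 8.51 and 8.50 in albino pools, against 8.31, 8.24 and 8.32 in pigmented pools, without overlap. This was 1 of 2 member probe sets among 52 with an unadjusted p under 0.05, with that of Neu1, both higher in albino (3.22% of all probe sets), and 0 were lower (1.46%). With the replicate block 3 of 52 were higher (11.9%) and 3 lower (6.12%), the lower ones being 2 probe sets of Lamp2 and the second of Ctsa.

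Ctsd, the aspartic protease that adult RPE uses heavily on outer segments, was the only one of the 10 hydrolase and cofactor members with a negative difference. It read 11.26, 10.51 and 10.60 in albino pools and 11.15, 10.72 and 10.70 in pigmented pools. Its difference was -0.07 (SE 0.23), and replicate 1 was 0.11 higher in albino while replicates 2 and 3 were lower by -0.21 and -0.10. Hexa, the alpha subunit of the hexosaminidase that degrades GM2 ganglioside, read 11.21, 10.55 and 10.53 in albino pools, against 11.10, 10.51 and 10.52 in pigmented pools. The wide spread came from replicate 1 in both genotypes, and the difference was 0.05 (SE 0.24). Ctsl, a further cysteine protease, differed by 0.03, Gla, the alpha-galactosidase gene, by 0.07, Psap, the precursor of the saposin cofactors, by 0.05 and Npc2, a soluble cholesterol carrier, by 0.03.

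Lysosomal membrane genes held both of the members that differed most beside Neu1. Lamp2, an abundant glycoprotein of the lysosomal membrane with a part in autophagy, read 11.10, 11.19 and 11.15 in albino pools and 11.26, 11.30 and 11.33 in pigmented pools. All albino arrays were below all pigmented arrays. The difference was -0.15 or 0.901-fold (SE 0.08, limma adjusted p = 0.999, and 0.265 with the replicate block). The other 3 probe sets of Lamp2 also had lower means in albino, at -0.17, -0.06 and -0.09, but with overlapping groups. Lamp1, its close relative, differed by 0.07 (SE 0.15).

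Npc1, the membrane protein that exports cholesterol from lysosomes, read 7.06, 7.55 and 7.44 in albino pools and 6.74, 7.29 and 7.28 in pigmented pools. Arrays of the same number differed by 0.32, 0.26 and 0.16, always higher in albino, although the groups overlapped because the replicate 1 arrays were low in both. The difference was 0.25 (SE 0.20, and 0.06 with the block, where the limma adjusted p was 0.204, the smallest of all members). The difference moved with single arrays, to 0.065 without pigmented replicate 1, 0.15 without albino replicate 2, 0.39 without albino replicate 1 and to 0.44 with the mean of Y-linked genes as a covariate. Mcoln1, the calcium channel TRPML1 of the lysosome, read 7.84, 7.46 and 7.45 in albino pools, against 7.79, 7.48 and 7.32 in pigmented pools, a difference of 0.05 (SE 0.17).

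**Figure D3:**
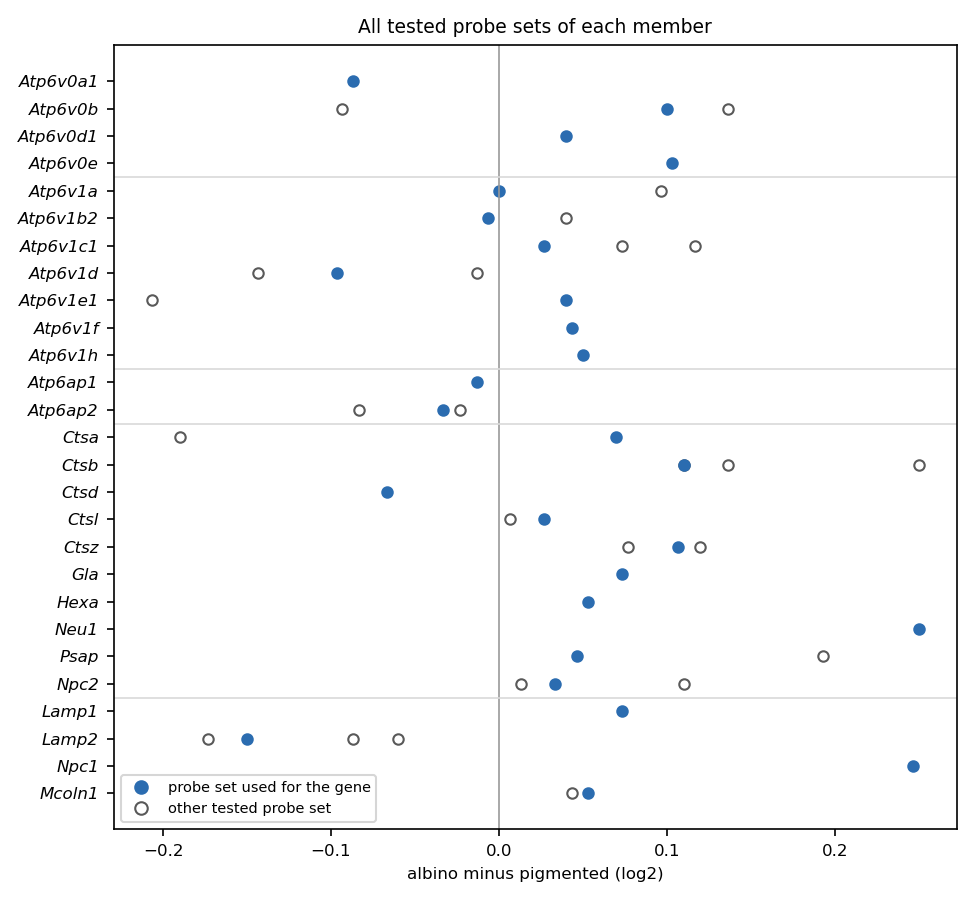
Albino minus pigmented difference (log2) of all 52 tested probe sets of the 27 members, with the probe set that stands for the gene filled and the others open. Of the 15 members with several tested probe sets, 10 had all of them on one side of 0, among them Lamp2, Ctsb, Ctsz and Atp6v1d, while those of Ctsa, Atp6v0b and Atp6v1e1 lie on both sides.

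The proton pump genes were set beside the other members by the mean of each class on each array. V-ATPase genes averaged 9.50 ± 0.21 (albino pools) and 9.49 ± 0.17 (pigmented pools), and the other members 9.69 ± 0.16 (albino) and 9.63 ± 0.13 (pigmented), as mean ± SD over 3 pools. Between arrays of the same number the V-ATPase mean differed by 0.06, -0.02 and 0.00, and the mean of the others by 0.10, 0.08 and 0.02. The V-ATPase minus the other members was thus lower in albino between all 3 arrays of the same number, by -0.04, -0.10 and -0.02, with an average of -0.05. This contrast read -0.13, -0.25 and -0.18 in albino pools, against -0.09, -0.15 and -0.17 in pigmented pools. The groups overlapped. By gene, 7 of 13 pump genes and 12 of 14 other members were higher in albino, with medians of 0.03 and 0.06, beside the 63.8% of all tested genes. After centring on the tested probe sets these counts were 2 of 13 and 4 of 14. Among the other lysosome genes described below, without centring, 5 of 10 pump and assembly genes were higher in albino (median -0.05). There, 18 of 31 hydrolase and cofactor genes (median 0.04) and 16 of 22 membrane protein genes (median 0.05) were higher. All 3 pair differences were higher in albino for 10 of 27 members (30.7% of all genes), 2 of them pump genes and 8 others, and lower for 2 of 27 (13.0%), namely Atp6v1d and Lamp2.

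A larger part of the variation lay between the replicate 1 arrays and the others. The replicate 1 array was the highest of its genotype in both genotypes for 22 of 27 members, against 60.2% of all tested genes, and the lowest in both for 2 (Npc1 and Lamp2), against 11.0%. Replicate 1 minus the mean of replicates 2 and 3 had a member median of 0.32 in albino and 0.32 in pigmented pools, and a median of 0.18 in each genotype over all tested genes. Pump genes had medians of 0.36 in albino and 0.32 in pigmented pools, and the other members 0.29 and 0.27. Membrane protein genes were split, with Lamp1 (0.35 and 0.36) and Mcoln1 (0.39 and 0.39) above 0 and Npc1 (-0.44 and -0.55) and Lamp2 (-0.07 and -0.06) below. The other tested probe sets of Lamp2 were split themselves, at 0.28 and 0.35, at -0.14 and -0.155, and at -0.30 and -0.145.

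The control probe sets for the 3' and 5' ends of the Gapdh transcript moved with the same arrays. Their 3' minus 5' difference was 0.70, 0.56 and 0.50 over the 3 albino arrays and 0.86, 0.55 and 0.68 over the 3 pigmented arrays, so replicate 1 was highest in each genotype. For beta-actin it was 1.04, 0.86 and 0.89 in albino pools, against 1.35, 0.93 and 1.01 in pigmented pools. The part of this measure in the values of the members was not tested.

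**Figure D4:**
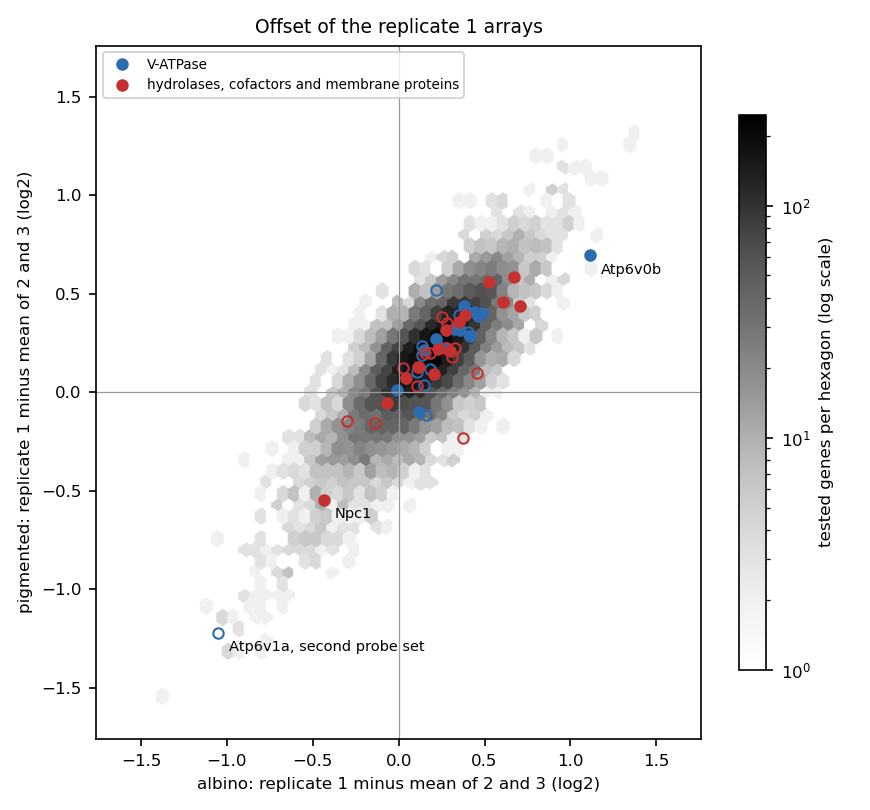
Replicate 1 minus the mean of replicates 2 and 3 (log2) in albino (horizontal) and in pigmented pools (vertical), for the tested probe sets of the members (filled where they stand for the gene, open otherwise) over the density of all tested genes, of which 32 lie outside the axes. Most members sit in the upper right, and Npc1 and the second Atp6v1a probe set (-1.05 and -1.22) sit in the lower left.

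Promoters of the members were searched for the E-box core that the MITF and TFE factors bind. In mammals TFEB, TFE3 and MITF recognise a CACGTG core, and in lysosomal genes an extended form is known as the CLEAR element. RefSeq promoter sequences of the GRCm38.p6 build, 250 bases before to 50 after each start, covered 24 of the 29 genes with 28 promoters. The 8 letters TCACGTGA, which contain the core and read the same on both strands, occurred in 7 of 28 member promoters (25.0%), and in 0.974% of all 32851 promoters of the same length. The core CACGTG, which also counts those matches, was in 10 of 28 (35.7%) and in 7.15% of all. The longer CLEAR form, the same 8 letters with a G before and a C after them, was in 0 of 28 member promoters, in 0.326% of all promoters and in 2 of 99 promoters of the other lysosome genes described below (2.02%). TCACGTGA was in 8 of those 99 (8.08%).

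The 7 member genes with TCACGTGA were Atp6v0d1, Atp6v0e, Atp6v1a, Ctsa, Ctsd, Gla and Mcoln1. The letters occurred in 3 of 13 promoters of pump members and in 4 of 15 promoters of the other members. Whether the sequence had a part in how the list of members was drawn up is not known here. The matches are shown with the neighbouring bases, 5′ to 3′ in the direction of the gene, with the 8 letters in capitals. Ctsa and Gla hold the letters at 2 places each, of which 1 is in capitals here.
Atp6v0d1, chr8:105566035-105566094, minus strand: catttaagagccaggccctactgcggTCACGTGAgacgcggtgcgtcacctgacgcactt
Atp6v0e, chr17:26676372-26676431, plus strand: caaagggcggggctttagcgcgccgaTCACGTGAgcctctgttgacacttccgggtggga
Atp6v1a, chr16:44139358-44139417, minus strand: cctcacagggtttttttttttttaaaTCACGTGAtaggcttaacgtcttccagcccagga
Ctsa, chr2:164833734-164833793, plus strand: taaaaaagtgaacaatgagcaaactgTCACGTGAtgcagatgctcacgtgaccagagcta
Ctsd, chr7:142387893-142387952, minus strand: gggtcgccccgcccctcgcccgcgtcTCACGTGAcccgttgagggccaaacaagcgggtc
Gla, chrX:134601167-134601226, minus strand: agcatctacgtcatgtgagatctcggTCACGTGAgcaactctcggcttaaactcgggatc
Mcoln1, chr8:3500447-3500506, plus strand: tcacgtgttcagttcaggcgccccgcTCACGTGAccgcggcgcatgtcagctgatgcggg

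The letters began 13 bases before the start in Ctsa, 46 in Mcoln1, 99 in Ctsd, 132 in Atp6v1a and 195 in Gla, while in Atp6v0d1 they spanned the start and in Atp6v0e they began just after it. A match of letters is not a measured binding site. The 7 genes differed between the genotypes by -0.07 to 0.10 (median 0.05), and the 15 members with a promoter in the table and a value, but without the letters, by -0.15 to 0.25 (median 0.04).

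Of the factors that can bind this sequence, Mitf read 10.07, 10.11 and 10.15 in albino pools, against 10.20, 10.21 and 10.21 in pigmented pools. These groups did not overlap, and the difference was -0.10 (SE 0.08, limma adjusted p = 0.999). Tfeb differed by -0.09 and Tfe3 by 0.01. The smallest p of the regulator list, ahead of that of Mitf, was that of Zkscan3, a zinc finger factor described as a repressor of lysosomal genes, at 9.64, 9.40 and 9.32 in albino pools, against 9.30, 9.21 and 9.33 in pigmented pools (difference 0.17, SE 0.11).

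Other genes of the lysosome behaved much as the members did in the fit, with 0 of 83 tested past the threshold. Their median difference was 0.03, against 0.04 over all tested genes. In albino 52 were higher and 31 lower, where 63.8% of all tested genes were higher. Before adjustment 1 was higher and 2 were lower with a p under 0.05, where 3.47% and 1.31% of all tested genes were. With the replicate block 9 were higher and 3 lower, where 11.3% and 5.54% of all tested genes were. Scpep1, a serine carboxypeptidase, differed most of the lower ones, at 9.29, 9.68 and 9.69 in albino pools, against 9.87, 10.10 and 9.97 in pigmented pools. No albino value reached the pigmented range, and the difference was -0.43 (SE 0.14, limma adjusted p = 0.958, and 0.192 with the block). Lamtor5, a subunit of the complex that ties nutrient sensing to the lysosome, read 10.58, 10.51 and 10.56 in albino pools, against 10.88, 10.84 and 10.70 in pigmented pools, a difference of -0.26 (SE 0.09, limma adjusted p = 0.997).

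Mfsd8, a lysosomal membrane transporter gene, read 5.81, 5.59 and 5.68 in albino pools, against 5.41, 5.53 and 5.26 in pigmented pools, a difference of 0.29 (SE 0.11). Ctsf, a cysteine protease, read 8.04, 7.86 and 7.99 in albino pools and 7.92, 7.75 and 7.54 in pigmented pools, a difference of 0.23 (SE 0.12), with overlapping groups. Atp6v1g1, a peripheral stalk subunit of the pump, read 11.62, 11.72 and 11.79 in albino pools and 11.99, 11.97 and 11.84 in pigmented pools. It had the largest difference among the 10 further pump and assembly genes tested (-0.22, SE 0.10). Dmxl2, which takes part in pump assembly and had the next smallest p of that list, read 9.37, 9.07 and 9.15 in albino pools and 9.40, 9.37 and 9.29 in pigmented pools (difference -0.16, SE 0.11). The groups overlapped for Dmxl2 through its replicate 1 albino array. In the list of sorting genes, Gga3, an adaptor at the Golgi, read 7.63, 7.61 and 7.58 in albino pools and 7.46, 7.51 and 7.41 in pigmented pools, without overlap (difference 0.15, SE 0.08). Gnptg, a subunit of the enzyme that tags hydrolases with mannose 6-phosphate, read 6.17, 5.99 and 5.90 in albino pools and 6.0, 5.84 and 5.70 in pigmented pools (difference 0.17, SE 0.12).

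Cell type markers were read in the same pools, and 0 macrophage, melanosome, RPE or skeletal muscle markers passed the adjusted threshold. Macrophages are rich in lysosomes, and 9 of 12 tested macrophage markers were higher in albino, where 63.8% of all tested genes were. The means over the macrophage list were 6.80 to 6.85 per albino array and 6.66 to 6.70 per pigmented array. Csf1r, the receptor that macrophages depend on, was not among these 9, at 9.68, 9.63 and 9.67 in albino pools and 9.86, 9.68 and 9.75 in pigmented pools, while Itgam and Cd14 were below the filter at 3.03 and 4.42. Melanosome genes were lower in albino in 9 of 9, with list means of 9.94 to 10.21 (albino) and 10.10 to 10.43 (pigmented). RPE markers were lower in 9 of 10, with 8.42 to 8.63 (albino) and 8.57 to 8.81 (pigmented). The part of these shifts, and of the skeletal muscle markers given above, in the differences of the lysosomal genes was not tested.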

How the data were processed

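Per the labels' protocols, 100 ng of RNA per pool was turned into biotin-labelled cRNA (3' IVT kit) for each of the 6 arrays. The deposited log2 expression values were made by the authors with RMA in Affymetrix Expression Console 1.1, per the submitters' processing notes. The number of arrays limits the precision. Array medians over all probe sets but the controls were 5.18 to 5.21 and upper quartiles 7.37 to 7.54. Over the tested probe sets the medians were 7.42, 7.34 and 7.32 on albino arrays and 7.33, 7.26 and 7.27 on pigmented arrays. Whether a single RMA run covered all 6 is not stated here.

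Of 45101 probe sets, 64 controls were left out, and 34945 name 1 gene, 932 several and 9160 none. Those with a mean of at least 5 were tested (23591). The genotype comparison used limma (3.58.1, R 4.3.3; a two-sided test, Benjamini-Hochberg over all tested probe sets, threshold 0.05), checked on simulated data. All adjusted p-values are limma's. SE is the standard error of the limma estimate. The members and lists were chosen with earlier results of these data known, and members carry no list-wise p. Full values were given for, in each role, the 2 members with the smallest p and the 2 with the widest range, and for the 2 genes of smallest p in each other list. Other values were chosen after they were seen. Deviations from the genotype means correlated at 0.863, 0.687 and 0.448 between arrays numbered 1, 2 and 3, which was taken as pairing. It rests on these correlations, since the labels state no shared litter or day, and albino 2 with pigmented 3 (0.693) and albino 3 with pigmented 2 (0.546) came as high. Alternatives covered scaling, filter, probe set choice, array weights, the block, a Y-linked covariate and leaving out arrays.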

Additional observations from a re-analysis of the deposited data

How the results depend on the processing

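Under all 18 alternatives 0 members passed the adjusted threshold, and the smallest limma adjusted p of a member was 0.123. With 3 pools a genotype, a p that misses the threshold does not show equal levels. The replicate block changed no adjusted call.

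The count of 1 member at an unadjusted p under 0.05 became 0 without the filter and with a Y-linked covariate. It was also 0 with a filter of 6, which left Neu1 (mean 5.99) untested and so could not call it. After centring on tested probe sets the count was again 1, but the member called was Lamp2, lower in albino, and not Neu1. It became 3 with the replicate block, with array weights and when the replicate 1 arrays formed their own block, and ran from 0 to 1 when 1 array was left out. The count of 3 among the other lysosome genes became 5 after centring on tested probe sets and after cyclic loess. It was 12 with the replicate block, 11 with array weights, 10 without both replicate 1 arrays, 14 with the block for replicate 1, 1 with the Y-linked covariate, and 1 to 3 without 1 array. The share of higher genes among those at an unadjusted p under 0.05 was 72.5%, and 35.6% after centring on tested probe sets, 52.8% after cyclic loess and 61.9% without the filter. Centring on tested probe sets and the block for replicate 1 were chosen after seeing the data.

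The member median of 0.04 became -0.03 after centring on tested probe sets. A covariate for Y-linked genes, whose mean was 7.06 to 7.99 in albino and 2.32 to 7.39 in pigmented pools, gave -0.079. Without 1 array it ran over -0.082 to 0.15, lowest without albino replicate 1 (4 of 27 higher) and highest without pigmented replicate 1 (24 of 27 higher). For the V-ATPase the values in this order were -0.047, -0.094 and -0.093 to 0.15, and for the other members -0.012, -0.036 and -0.054 to 0.17.

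The sign turned in 76 of 482 combinations of a member and a setting, none past the threshold, and the cause was not tested. Array weights gave Atp6v0b -0.025. The Y-linked covariate gave Atp6v0b -0.075, Atp6v0d1 -0.15, Atp6v1c1 -0.036, Atp6v1e1 -0.13, Atp6v1f -0.052, Atp6v1h -0.039, Ctsa -0.092, Ctsl -0.039, Hexa -0.15, Psap -0.021, Npc2 -0.19, Lamp1 -0.088 and Mcoln1 -0.032. Leaving out both replicate 1 arrays gave Atp6v0b -0.04 and Atp6ap1 0.005. Centring on tested probe sets gave Atp6v0d1 -0.033, Atp6v1c1 -0.047, Atp6v1e1 -0.033, Atp6v1f -0.03, Atp6v1h -0.023, Ctsa -0.0033, Ctsl -0.047, Hexa -0.02, Psap -0.027, Npc2 -0.04 and Mcoln1 -0.02. Averaging the probe sets gave Atp6v1b2 0.017, Atp6v1e1 -0.083 and Ctsa -0.06. Cyclic loess gave Atp6v1c1 -0.012 and Mcoln1 -0.0027. Dropping the _x_at and _s_at probe sets gave Atp6v1e1 -0.21. Leaving out 1 array at a time gave Atp6v0b -0.27 to 0.33, Atp6v0d1 -0.11 to 0.17, Atp6v0e -0.035 to 0.20, Atp6v1b2 -0.17 to 0.13, Atp6v1c1 -0.065 to 0.10, Atp6v1e1 -0.11 to 0.18, Atp6v1f -0.075 to 0.15, Atp6v1h -0.057 to 0.16, Atp6ap1 -0.085 to 0.077 and Atp6ap2 -0.082 to 0.038. For the other members that turned there, the ranges were Ctsa -0.13 to 0.22, Ctsd -0.30 to 0.08, Ctsl -0.065 to 0.13, Gla -0.0033 to 0.17, Hexa -0.17 to 0.25, Psap -0.022 to 0.11, Npc2 -0.14 to 0.22, Lamp1 -0.043 to 0.19 and Mcoln1 -0.075 to 0.18. The members that kept their sign ran over Atp6v0a1 -0.13 to -0.045, Atp6v1d -0.10 to -0.093, Ctsb 0.01 to 0.18, Ctsz 0.067 to 0.15, Neu1 0.20 to 0.31, Lamp2 -0.17 to -0.13 and Npc1 0.065 to 0.39. Atp6v1a, at 0 over all arrays, ran over -0.13 to 0.15.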

Other observations

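Both tested probe sets of Atp6v1a, the catalytic subunit gene of the proton pump, moved in opposite directions on the replicate 1 arrays. The probe set used for the gene stood above the mean of replicates 2 and 3 by 0.38 in albino and 0.44 in pigmented pools. The second read 8.39, 9.44 and 9.44 in albino pools and 8.18, 9.49 and 9.31 in pigmented pools, an offset of -1.05 in albino and -1.22 in pigmented pools. Between the genotypes they differed by 0.00 and 0.10.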
